A study of Mus musculus with 16 samples.

Results

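The quiescence factors of T cells are genes whose products hold a lymphocyte in a small, non-dividing state, and 10 of them were examined here among the 55536 annotated genes of the series: Klf2, Klf3, Klf6, Klf13, Foxo1, Foxo3, Foxp1, Btg1, Tob1 and Slfn2. They were chosen with earlier results of these data known and found by gene symbol in the deposited gene table, and all 10 were present once and passed the filter on low counts. RNA was sequenced from CD8+ T cells of the OT-I line, whose transgenic receptor sees the ovalbumin peptide SIINFEKL. The cells had received Cas9 with a scrambled gRNA (Control_gRNA, 8 libraries) or a gRNA against Tardbp, the gene of the RNA-binding protein TDP-43 (Tardbp_gRNA, 8 libraries). Both groups were then moved into C57BL/6J mice and given antigen with antibodies that engage OX40 and 4-1BB, receptors of costimulation. They were collected from spleen and lymph nodes, after 4 days per the labels. By the paper's methods the transferred cells were sorted by CD8 together with the CD45 markers of the donor mice. Each library is thus an edited population and not a clone, the guide was delivered before transfer, and no unstimulated or antigen-only library was analysed here. The paper states that the cells came from 8 individual recipient mice and then went on to stimulation and RNA sequencing. How far that stimulation applied to these libraries was not settled. The labels did not tie a library to a mouse or an experiment, so the p-values measure the spread between these libraries.

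In a resting T cell, KLF2 and FOXO1 switch on genes for survival and for traffic through lymph nodes, and signals through PI3K and AKT drive FOXO proteins out of the nucleus and lower KLF2 once the T cell receptor is engaged. FOXP1 opposes exit from the resting state. BTG1 and TOB1 belong to a family that brings the CCR4-NOT deadenylase to messenger RNAs, which shortens their poly(A) tails, and Slfn2 is required for resting T cells to stay resting. TDP-43 binds UG-rich RNA and acts in splicing, in the choice of RNA ends and in RNA turnover.

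Tardbp itself ranged from 172 to 207 CPM (the count relative to the scaled library total) in the Control_gRNA libraries and from 110 to 147 CPM in the Tardbp_gRNA libraries. The groups did not overlap, and the log2 fold change was -0.51 ± 0.06 (SE, edgeR quasi-likelihood adjusted p = 8.07e-07). Mean Tardbp RNA in the Tardbp_gRNA group was 70.1% of the control mean, and RNA does not measure the edited protein. The libraries held 56016533 to 94801105 estimated counts, and the RNA concentration before dilution was 34.9 to 197 in Control_gRNA and 10.1 to 24 in Tardbp_gRNA, with no overlap and no unit given. All 8 CD8 T cell markers were higher in Tardbp_gRNA, with summed levels of 4898 to 5929 CPM against 6786 to 8493 CPM. Markers of other cells summed to less than these in every library, but not all were near 0. Red cell markers reached 181 CPM in Tardbp_gRNA library 4, and the 4 of them tested had log2 fold changes of 2.78 to 2.94. Summed levels in the Control_gRNA and Tardbp_gRNA libraries were 11.5 to 26 against 26.3 to 40.7 CPM over 6 B cell markers (1 of 5 tested was called, higher), 15.6 to 37.9 against 19.9 to 81.1 CPM over 7 myeloid markers (3 of 6 higher), 16 to 65.1 against 37.8 to 103 CPM over 4 natural killer markers (1 higher and 1 lower), 0.442 to 17.4 against 9.02 to 181 CPM over 6 red cell markers (4 of 4 higher) and 4.39 to 20.7 against 6.15 to 15.6 CPM over 4 CD4 markers (none of 4 called, edgeR adjusted p from 0.244 to 0.96). Most of the natural killer sum was Eomes, the 1 called higher, at a mean of 26.1 CPM in Control_gRNA and 54.2 CPM in Tardbp_gRNA. Ncr1 (0.774 and 1.14 CPM) and Klrb1c (0.723 and 1.32 CPM) were not called. No marker was at 0 in all libraries, Pax5 was at 0 in every Tardbp_gRNA library, and the part of these other cells and of the RNA amount in the results was not tested.

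Of the 10 quiescence factors, 8 were higher in the Tardbp_gRNA cells at an edgeR adjusted p under 0.05 and 0 were lower (0 lower also at an unadjusted p under 0.05 and with DESeq2). Across all 16650 genes tested, 46.7% were called in either direction and 23.5% were called higher. The median log2 fold change of the 10 genes was 0.62, and that of all genes tested was 0.05. The Tardbp_gRNA libraries lay wholly above the Control_gRNA libraries for 3 of the 10 genes (Btg1, Foxp1 and Foxo3), against 6.61% of all genes tested. The direction of the 8 calls was the same under every scaling tried. Because this is bulk RNA, more cells of a resting type and more of an RNA per cell cannot be told apart.

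**Figure D1:**
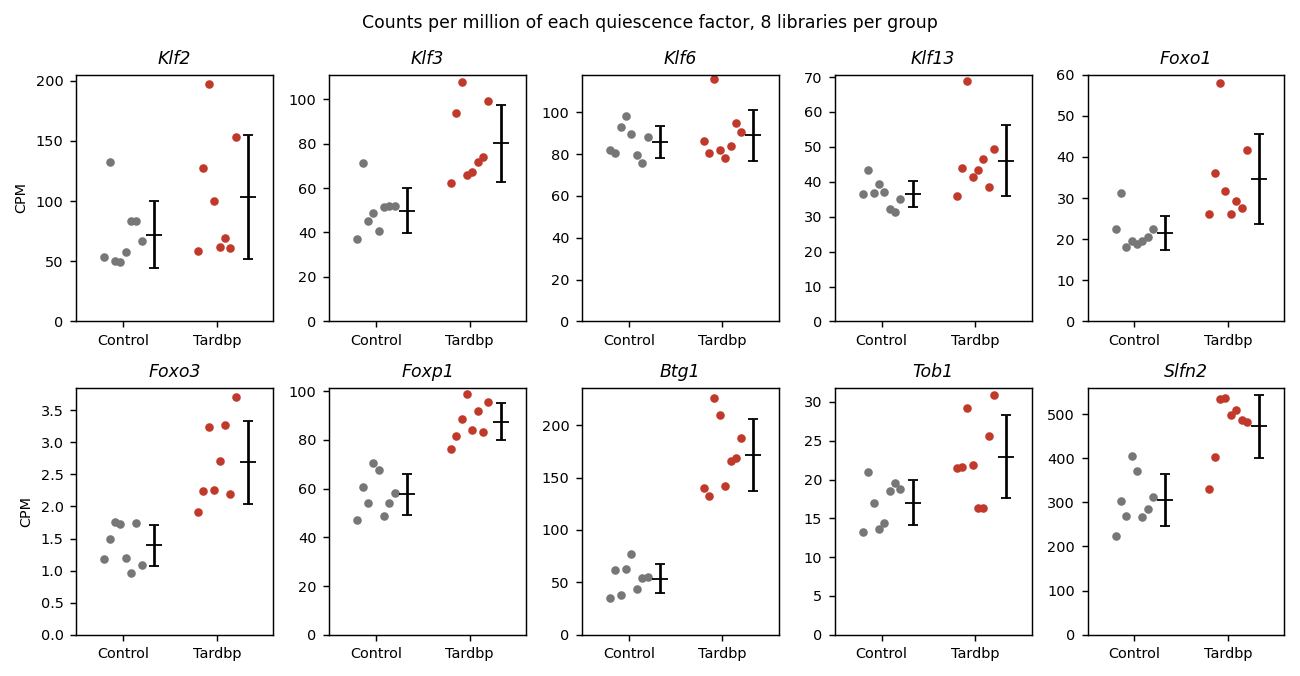
CPM of each of the 10 quiescence factors (vertical axes, linear, from 0) in the 8 Control_gRNA libraries (grey) and the 8 Tardbp_gRNA libraries (red). Points are libraries in the order of their numbers and black bars are mean ± SD. Btg1 is at 35.1 to 76.6 CPM in grey and 132 to 226 CPM in red, while Klf6 overlaps throughout.

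Sequences were taken from RefSeq for the start regions of all 10 genes (250 bases before to 50 after the annotated start, build GRCm38.p6) to show what lies at the genes that moved most. Btg1 had the largest fold change of the 10, and its start region (chr10:96616751-96617050, plus strand) is shown with the match to the FOXO core GTAAACA, here read on the opposite strand, in capitals:
Btg1: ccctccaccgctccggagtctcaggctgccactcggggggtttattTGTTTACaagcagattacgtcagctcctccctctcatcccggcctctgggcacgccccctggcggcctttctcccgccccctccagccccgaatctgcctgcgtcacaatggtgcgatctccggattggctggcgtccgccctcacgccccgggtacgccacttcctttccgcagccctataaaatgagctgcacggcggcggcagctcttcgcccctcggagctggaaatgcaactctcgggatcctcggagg
This match lies 204 bases before the start. The FOXO core (both strands) was present in the Btg1 start region and in none of the other 9 genes, and 3.65% of 32851 start regions of this length held it. For the Krüppel-like factors, the start region of Klf3 (chr5:64803271-64803570, plus strand) is shown with each CACCC or its reverse GGGTG, the letters that KLF proteins read, in capitals:
Klf3: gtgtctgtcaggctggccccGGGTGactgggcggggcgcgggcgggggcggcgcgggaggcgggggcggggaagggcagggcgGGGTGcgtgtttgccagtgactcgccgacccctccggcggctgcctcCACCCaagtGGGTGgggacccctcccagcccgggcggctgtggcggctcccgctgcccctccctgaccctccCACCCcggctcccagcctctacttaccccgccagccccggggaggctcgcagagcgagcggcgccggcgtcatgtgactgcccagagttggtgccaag
It held 5 matches, the highest number in any 1 window of the 10 genes. Foxp1, with 3 start regions, had 3, 2 and 0. In all, 6 of the 10 genes (Klf2, Klf3, Klf13, Foxp1, Tob1 and Slfn2) had at least 1 CACCC match in a start region, and 57.5% of all start regions did. The matches are a description of the letters in these windows and do not show binding.

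Among the Krüppel-like factors, zinc finger transcription factors that read CACCC boxes, 2 of 4 were called. Klf2, an activator of the egress receptor gene (chr8:72319033-72321656, plus strand, like all positions here in GRCm38, the sequence of mm10), was at 49.1 CPM in the lowest, 62.3 CPM in the median and 132 CPM in the highest Control_gRNA library, against 58.2, 85 and 198 CPM in Tardbp_gRNA. Only 2 Tardbp_gRNA libraries exceeded the highest control, and the difference of 0.52 ± 0.27 (log2, SE) missed the threshold (edgeR adjusted p = 0.124, exact permutation p = 0.148, n = 8 per group). The highest control was library 2, at 132 CPM where the other 7 were between 49.1 and 83.8 CPM. Without it the Klf2 difference was 0.70 and the edgeR adjusted p 0.0325. Without Tardbp_gRNA library 3, the highest of its group, the difference was 0.32 and the adjusted p 0.315.

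Klf3, a repressor that pairs with CtBP (chr5:64803388-64832901, plus strand), had lowest, median and highest levels of 37.2, 50.1 and 71.3 CPM in Control_gRNA and of 62.4, 72.9 and 108 CPM in Tardbp_gRNA. It was higher by 0.69 ± 0.13 on the log2 scale (edgeR adjusted p = 0.00035), and 7 of the 8 control libraries lay below the lowest Tardbp_gRNA library. Klf13, a GC-box factor known in T cells for its part in chemokine transcription (chr7:63886351-63938915, minus strand), was at 31.4, 36.7 and 43.3 CPM against 35.9, 43.7 and 68.8 CPM. Its rise was small, 0.33 ± 0.11 (edgeR adjusted p = 0.0164), with 5 of 8 Tardbp_gRNA libraries above the highest control. Klf6, a broadly expressed immediate early gene (chr13:5861482-5870394, plus strand), was at 75.7, 85.1 and 98.1 CPM against 78.1, 85.1 and 116 CPM. The groups overlapped and shared their median, with a difference of 0.05 ± 0.08 (edgeR adjusted p = 0.593). Its sign turned to -0.01 with libraries 4 to 8 alone or without Tardbp_gRNA library 3, and to -0.02 without that library and Control_gRNA library 2.

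All 3 forkhead factors were called, at very different levels. Foxo1, the main FOXO protein of T cells and a driver of Klf2 and Il7r (chr3:52268336-52353221, plus strand), had lowest, median and highest levels of 18.1, 20.04 and 31.1 CPM in Control_gRNA and of 26.1, 30.6 and 58.0 CPM in Tardbp_gRNA. It was higher by 0.68 ± 0.16 (log2, SE, edgeR adjusted p = 0.00156). The highest control, library 2, was the only control above the lowest Tardbp_gRNA library. Foxo3, which promotes cell death and cycle arrest genes (chr10:42181841-42276755, minus strand), was at 0.955, 1.35 and 1.75 CPM against 1.91, 2.48 and 3.71 CPM. These levels rest on 83 to 149 counts per Control_gRNA library and 157 to 291 per Tardbp_gRNA library. The groups did not overlap, and the difference was 0.95 ± 0.17 (edgeR adjusted p = 0.000196, exact permutation p = 0.000155, the smallest that 8 against 8 can give). Foxp1, which restrains the exit of naive T cells from rest (chr6:98925338-99522721, minus strand), was at 47.0, 56.1 and 70.5 CPM against 76.2, 86.4 and 98.8 CPM. It also did not overlap and had the smallest SE of the 8 called genes, with a difference of 0.60 ± 0.08 (edgeR adjusted p = 8.17e-06, exact permutation p = 0.000155).

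The remaining 3 factors were all called higher. Btg1 (chr10:96617006-96622809, plus strand) was at 35.1, 54.7 and 76.6 CPM in the lowest, median and highest Control_gRNA library and at 132, 167 and 226 CPM in Tardbp_gRNA. Its fold change of 3.21, or 1.68 ± 0.15 on the log2 scale, was the largest of the 10 (edgeR adjusted p = 1.51e-07, exact permutation p = 0.000155), and the lowest Tardbp_gRNA library stood well above the highest control. Tob1 (chr11:94211454-94215495, plus strand), which shares the BTG domain, was at 13.3, 17.8 and 21 CPM against 16.4, 21.7 and 30.9 CPM. Here 6 Tardbp_gRNA libraries lay above every control and the other 2 fell among the controls, with a difference of 0.43 ± 0.14 (edgeR adjusted p = 0.0149). Without Tardbp_gRNA library 8 the Tob1 difference was 0.33 and no longer passed (edgeR adjusted p = 0.0556). Slfn2, a schlafen protein whose loss makes T cells leave rest and die (chr11:83065112-83070678, plus strand), was at 224, 295 and 404 CPM against 330, 492 and 536 CPM. Its difference was 0.63 ± 0.11 (edgeR adjusted p = 0.000176), with 6 Tardbp_gRNA libraries above every control. The Slfn genes lie in a cluster of related copies between which the counting could split reads, so their values are uncertain.

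How far the calls rested on a subset of libraries or on the RNA amount differed between genes. In libraries numbered 1 to 3 alone, 2 of the 10 were called (Btg1 and Foxp1), where 1696 of all 16871 genes tested were. In libraries 4 to 8 alone 7 were called, Tob1 being lost (0.38, edgeR adjusted p = 0.106), where 6854 of all 16794 were. Calls thus also fell over all genes in these smaller sets. The fold changes of the 8 genes in libraries 1 to 3 alone nevertheless ran from 0.32 for Klf13 to 1.84 for Btg1, all above 0. An edgeR fit that also held the log2 RNA concentration called 2697 of all 16650 genes. It called 3 of the 10: Btg1 (1.87, adjusted p = 0.00221), Foxo3 (1.13, adjusted p = 0.0483) and Foxp1 (0.54, adjusted p = 0.0489). The 5 genes no longer called kept differences of 0.66 for Klf3, 0.44 for Klf13, 0.94 for Foxo1, 0.47 for Tob1 and 0.57 for Slfn2. That covariate does not overlap between the groups, so the RNA amount and the guide cannot be told apart for any of the 10. A deposited column headed sex gave F for 5 and M for 3 Control_gRNA libraries, and F for 3 and M for 5 Tardbp_gRNA libraries. With edgeR it was tested whether the effect differed between libraries 1 to 3 and 4 to 8, or between these letters M and F. The edgeR test called 0 of the 10 genes, as it did 0 of all 16650, and the lowest unadjusted p among the 10 was 0.334 and 0.118. With 3 libraries in the smallest sets, a moderate difference of effects could be missed.

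**Figure D2:**
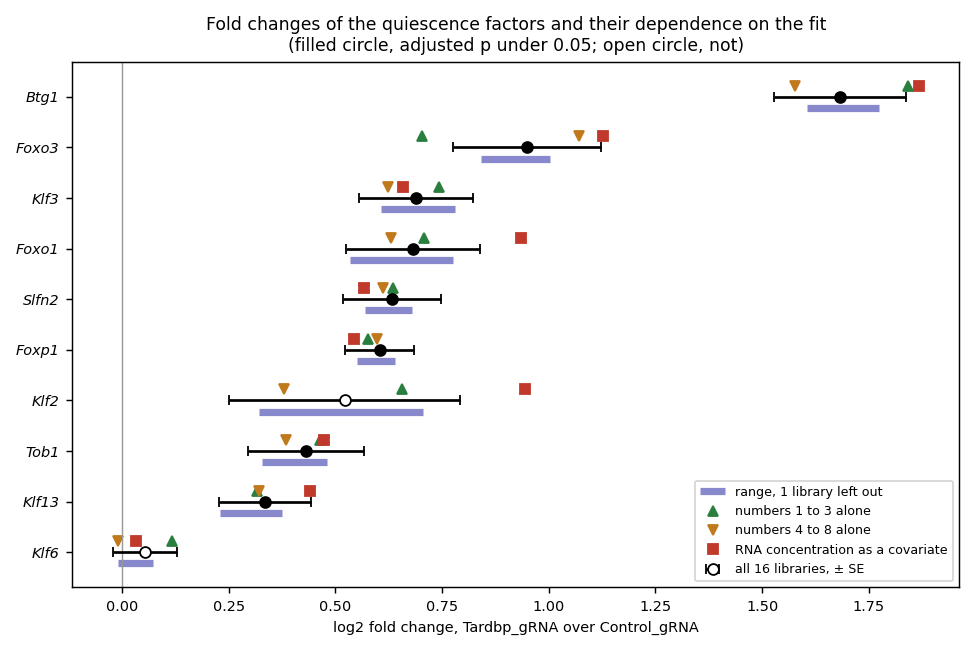
Log2 fold change of each quiescence factor, Tardbp_gRNA over Control_gRNA (horizontal axis). Circles with bars are the estimate ± SE from all 16 libraries (filled, adjusted p under 0.05), blue bars span the estimates with 1 library left out, and the other markers are fits on a subset of libraries or with the RNA concentration as a covariate. Btg1 stays above 1.5 in every fit shown and Klf6 stays near 0.

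Within groups, some libraries were high for several of these genes together. Tardbp_gRNA library 3 was the highest of its group for 6 of the 10 genes (Klf2, Klf3, Klf6, Klf13, Foxo1 and Btg1) and had the lowest Tardbp level, 110 CPM. Control_gRNA library 2 was the highest of its group for 5 of the 10, while Tardbp_gRNA library 1 and Control_gRNA library 1 were the lowest for 6 and 5. With Control_gRNA library 2 and Tardbp_gRNA library 3 left out together, 8 of the 10 genes were again called, the same 8, and the fold changes ran from 0.27 for Klf13 to 1.65 for Btg1. After the group means were taken away, 43 of the 45 pairs among the 10 genes had a positive correlation over the 16 libraries, with a median Pearson r of 0.391. The highest were 0.895 for Klf2 with Foxo1 and 0.887 for Foxp1 with Slfn2. For all pairs of 8976 well-expressed genes (average log2 CPM no lower than 3), the median r was -0.000984. The points share library and depth, and these values are a description.

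By the same measure, the genes most like each factor were Ctbp1 (r = 0.979) and Grk6 (0.977) for Klf2, Ubp1 (0.947) and Paxbp1 (0.900) for Klf3, Flad1 (0.847) and Lin37 (0.830) for Klf6, and Hes6 (0.902) and Lat (0.880) for Klf13. For the forkhead genes they were Mtch1 (0.949) and Gnb1 (0.940) for Foxo1, Sec23a (0.761) for Foxo3, and Pecam1 (0.939) and Gsn (0.922) for Foxp1. For the others they were March2 (0.896) and Ccm2 (0.856) for Btg1, Nckipsd (0.937) and Trim59 (0.934) for Tob1, and Pkp3 (0.945) and Pecam1 (0.941) for Slfn2. Foxo3, the gene with the fewest counts, had the lowest leading value.

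Levels of different genes were compared per transcript length, as TPM, in which each count is divided by transcript length and set relative to the library. Slfn2 was the most abundant in both groups, at 302 ± 59.8 TPM in Control_gRNA and 447 ± 62.1 TPM in Tardbp_gRNA (SD, n = 8), and no library of Slfn2 reached down to Klf2. In Control_gRNA, Klf2 (64.6 ± 26.1 TPM), Foxp1 (41.6 ± 9.39 TPM) and Klf6 (34.3 ± 3.26 TPM) followed, with Foxp1 overlapping both of the others. Next came Klf3 (17.9 ± 3.92 TPM), Btg1 (17.8 ± 4.78 TPM), Tob1 (12.3 ± 2.28 TPM) and Klf13 (10.4 ± 1.18 TPM), which again overlapped as neighbours. Foxo1 (4.10 ± 0.830 TPM) and Foxo3 (0.5 ± 0.126 TPM) were each below the gene before them in every library. In Tardbp_gRNA the order was the same except that Btg1 moved from rank 6 to rank 3, at 54.3 ± 10 TPM, overlapping Klf2 above it and Foxp1 (49.6 ± 9.21 TPM) below it. The order in the middle depends on the length used: per length of all annotated exons, Foxp1 moved from rank 3 to rank 8 in Control_gRNA, at 10.7 TPM.

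**Figure D3:**
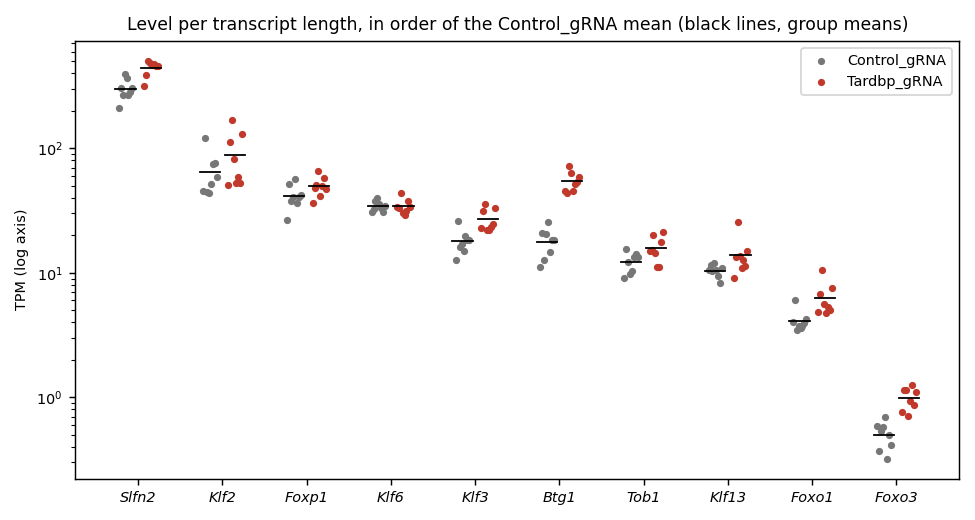
Level per transcript length in TPM (vertical axis, log scale) of the 10 quiescence factors, ordered by the Control_gRNA mean, with 8 libraries per group as points and group means as black lines. Slfn2 is near 302 and 447 TPM, Foxo3 near 0.5 and 0.987 TPM, and Btg1 shifts furthest between groups.

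The test was repeated on single transcripts. Of 58 annotated transcripts of the 10 genes 32 were tested, and 9 were called, all higher, where 8.5% of all 40897 transcripts tested were called higher. Btg1-201 held 99.8% of the Btg1 counts in Control_gRNA and 99.9% in Tardbp_gRNA and rose by 1.64 ± 0.16 (edgeR adjusted p = 5.54e-06). Slfn2-201, the only annotated Slfn2 transcript, rose by 0.59 ± 0.12 (adjusted p = 0.00186), and Foxo1-201, the only one of Foxo1, by 0.63 ± 0.17 (adjusted p = 0.0138). Klf3 rose through its coding transcript Klf3-201 (85.6% and 84.0% of the gene, 0.62 ± 0.14, adjusted p = 0.00681) and through the retained-intron transcript Klf3-203 (12.2% and 14.2%, 0.87 ± 0.18, adjusted p = 0.00281). Foxo3-203, with 85.9% and 85% of the gene, rose by 0.88 ± 0.23 (adjusted p = 0.0148), and Foxo3-202 (12.4% and 14.3%) was at 0.162 ± 0.146 and 0.361 ± 0.115 CPM and was not called (adjusted p = 0.193).

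The remaining main transcripts were not called on their own. Klf13-201 held 99.0% and 98.2% of its gene and differed by 0.28 ± 0.10 (edgeR adjusted p = 0.0858), and Tob1-201, the only Tob1 transcript, by 0.39 ± 0.15 (adjusted p = 0.091). Klf2-201 (0.47 ± 0.29, adjusted p = 0.309) and Klf6-201 (0.01 ± 0.07, adjusted p = 0.958) stood as their genes did. Foxp1 had 31 annotated transcripts, and its counts were spread widely between them from library to library. Foxp1-204 held 30.8% in Control_gRNA and 45.1% in Tardbp_gRNA (18 ± 11.9 and 38.0 ± 17.3 CPM, adjusted p = 0.163), and Foxp1-230 held 17.6% and 13.5% (adjusted p = 0.938). The 3 Foxp1 transcripts that were called, Foxp1-203, Foxp1-209 and Foxp1-213, were each under 3% of the gene. Of the shares of transcripts in their genes, 0 of 27 passed the limma test with a difference over 0.1, where 0.64% of all shares tested did, and 4 of the 27 had an unadjusted p under 0.05. The largest difference, 14.3 percentage points for Foxp1-204, had a limma adjusted p of 0.512.

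Splicing was read from the Psi values deposited for each node of a gene, where Psi is the fraction of reads that include the node, pooled over each group and so without replicate error. Nodes were listed for 7 of the 10 genes, 51 in all (26 in Foxp1, 8 each in Klf3 and Foxo3, 5 in Klf13, 2 in Klf6, and 1 each in Klf2 and Foxo1), and none for Btg1, Tob1 or Slfn2. The pooled difference exceeded 0.1 in size for 4 of the 51 (7.84%), where 4.7% of all 125520 nodes did. None of the 25 core exon nodes of these genes was among the 4, and 30 of the 51 differed by less than 0.01. Of the 4, 2 were tandem start nodes, 1 was a tandem end and 1 an alternative first exon. Tandem start and end nodes exceeded 0.1 more often in the whole table, in 20.4% and 21.5% of them, than core exons did, in 0.932%.

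The tandem starts of Foxo3 showed by far the largest difference. Node 1, the first 3 bases of the annotated gene (chr10:42276753-42276755, minus strand), had a Psi of 0.0941 in Control_gRNA and 0.851 in Tardbp_gRNA. Node 4 (chr10:42276526-42276696) went the other way, from 0.912 to 0.144, and nodes 2 and 3 between them differed by 0.06 and 0.05. The 5′ end of node 4 lies 1 base upstream of the RefSeq start and that of node 1 lies 60 bases upstream of it. The start region is printed in the direction of transcription (chr10:42276646-42276945, minus strand), with node 1 and the first 51 bases of node 4 in capitals:
Foxo3: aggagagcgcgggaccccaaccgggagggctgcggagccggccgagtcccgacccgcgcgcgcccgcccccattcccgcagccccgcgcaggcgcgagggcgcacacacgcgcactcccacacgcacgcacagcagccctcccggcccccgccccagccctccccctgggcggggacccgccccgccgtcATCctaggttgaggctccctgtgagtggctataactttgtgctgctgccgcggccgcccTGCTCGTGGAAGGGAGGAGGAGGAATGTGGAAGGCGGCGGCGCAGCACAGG
The capitals of node 1 are bases 191 to 193 of this window and those of node 4 are bases 250 to 300, so the nodes lie close together in the start region. Foxo3 had the fewest counts of the 10 genes, and the pooled Psi of its starts has no error, so whether this difference exceeds the spread between libraries was not tested.

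The other nodes past 0.1 moved less. Klf13 node 6, the most distal of its tandem end nodes (chr7:63886351-63891382, minus strand, 5032 bases), went from 0.655 to 0.499, while the nearer end nodes 4 and 5 went from 0.345 to 0.404 and from 0.001 to 0.0982. Foxp1 node 4, an alternative first exon (chr6:99266347-99266515, minus strand), went from 0.842 to 0.711, and its 5′ end is the RefSeq start itself, at a distance of 0 bases. The largest difference in Klf3 was 8.87 percentage points, in Klf2 0.69, in Foxo1 0.474 and in Klf6 0.008.

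**Figure D4:**
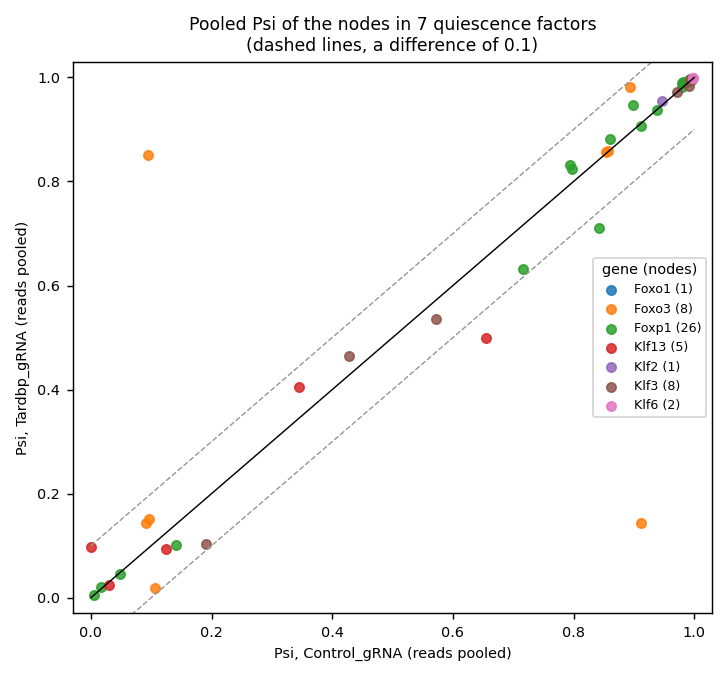
Psi of the 51 nodes in 7 quiescence factors, from reads pooled over the 8 Control_gRNA libraries (horizontal axis) and over the 8 Tardbp_gRNA libraries (vertical axis), colored by gene. Dashed lines mark a difference of 0.1, and the 2 points far from the diagonal are the Foxo3 start nodes 1 and 4.

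UG repeats, the letters that TDP-43 reads, were counted as TGTGTG in the sense strand of the most abundant transcript of each gene. Overlapping matches were each counted, so 1 run can hold several and the counts are not numbers of separate sites. TGTGTG was present in 8 of the 10 genes and in 63.3% of the 16640 main transcripts examined. Klf13-201 held 16, all in its 3′ untranslated region, more than 92.0% of main transcripts within 10% of its length, and 95.2% of those held at least 1. Most of these 16 overlap within 1 run of 34 bases. Slfn2-201 held 5, all in the coding part, more than 95.4% of main transcripts of like length, of which 56.9% held at least 1. The longest run of each is shown in a window of 24 bases of the RNA sense strand, with TGTGTG in capitals:
Klf13: gTGTGTGTGTGTGTGTGTGTGTGt
Slfn2: tccggagcTGTGTGTGcatatgtg
The Klf13 window (chr7:63890034-63890057, minus strand) is part of a run of 34 bases, inside Klf13 node 6. That node spans 5032 bases and Klf13-201 is 6396 bases long, so most places in this transcript fall inside the node. The Slfn2 window (chr11:83070172-83070195, plus strand) holds a run of 8 bases. Klf2-201 and Tob1-201 held none, Btg1-201, with the largest rise, held 3, and so did the median main transcript of its length. A match does not show binding, and the relation of these counts to the fold changes or to the Psi values was not tested.

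The relatives of these genes did not move as a block. Of 29 other genes of the same families, 22 were tested, 7 were higher and 5 lower, with a median of 0.37. Higher were Klf9 (1.24, from 0.296 to 0.702 CPM), Slfn1 (1.06), Foxo4 (0.49), Klf7 (0.48), Btg3 (0.46), Btg2 (0.39) and Foxp4 (0.37). Lower were Slfn9 (-1.06, edgeR adjusted p = 1.28e-06), Klf8 (-0.64), Klf11 (-0.47), Slfn3 (-0.44) and Klf10 (-0.33), the last a gene induced by TGF-beta. Tob2, the closest relative of Tob1, was at 46.9 ± 5.22 CPM and 43.8 ± 4.09 CPM (-0.10, adjusted p = 0.263). The Slfn family thus held both directions, with Slfn2 and Slfn1 higher and Slfn9 and Slfn3 lower.

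Known targets of KLF2 and FOXO1 moved in both directions. In a list of 20 genes activated by KLF or FOXO factors, 9 were higher, 5 were lower and 6 were not called, with a median of 0.29. Pik3ip1, a brake on PI3K, rose by 1.43 ± 0.14 (edgeR adjusted p = 3.1e-07), and Bcl2l11, the pro-death BIM, by 1.05 ± 0.14 (adjusted p = 9.93e-06). S1pr1, the egress receptor and a Klf2 target, was at 226 ± 36.7 CPM and 234 ± 11.4 CPM and did not pass (0.05 ± 0.08, adjusted p = 0.638). Il7r, the IL-7 receptor and a FOXO1 target, fell by 0.51 ± 0.14 (adjusted p = 0.0046). Ccr7 fell by 0.22 ± 0.07 (adjusted p = 0.0107) and Rbl2, the pocket protein p130, by 0.45 ± 0.07 (adjusted p = 7.4e-05).

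The enzymes around these factors were mostly lower. Among 18 genes of FOXO control by PI3K and AKT, 2 were higher and 11 lower, with a median of -0.22. Xpo1, the exporter that carries FOXO proteins out of the nucleus, had the lowest value (-0.80 ± 0.07, edgeR adjusted p = 1.48e-07), followed by the phosphatase Inpp5d (-0.43), and Rictor (0.19) and the 14-3-3 gene Ywhab (0.13) were higher. With libraries 4 to 8 alone or with the RNA concentration in the fit, 0 genes of this list were called higher. Of the 15 CCR4-NOT and PAN deadenylase genes, the machinery that Btg1 and Tob1 contact, 2 were higher and 7 lower, with a median of -0.12. The scaffold Cnot1 went from 155 ± 14.9 CPM to 90.5 ± 12.8 CPM (-0.78 ± 0.08, adjusted p = 6.19e-07) and Pan2 fell by 0.49, while Pan3 (0.49) and the catalytic Cnot6l (0.33) rose.

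Other regulators of T cell rest divided. Of 20 tested of 21, 8 were higher and 4 lower, with a median of 0.05. The AU-rich element binding genes Zfp36l1 (0.77 ± 0.11, edgeR adjusted p = 2.27e-05) and Zfp36 (0.76 ± 0.08, adjusted p = 3.06e-07) were the highest, and the pocket protein gene Rbl1 (-0.37) and the mTOR brake Tsc2 (-0.35) the lowest. Of 16 proliferation genes 13 were lower and 3 were not called, with a median of -0.49, from Pcna (-0.30) and Cdk1 (-0.34) to Mcm5 (-0.76) and Bub1 (-0.87). Their Control_gRNA level was still high, as Mki67 was at 381 ± 27 CPM against 272 ± 37 CPM, so RNA of this cycling marker was abundant in both groups.

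**Figure D5:**
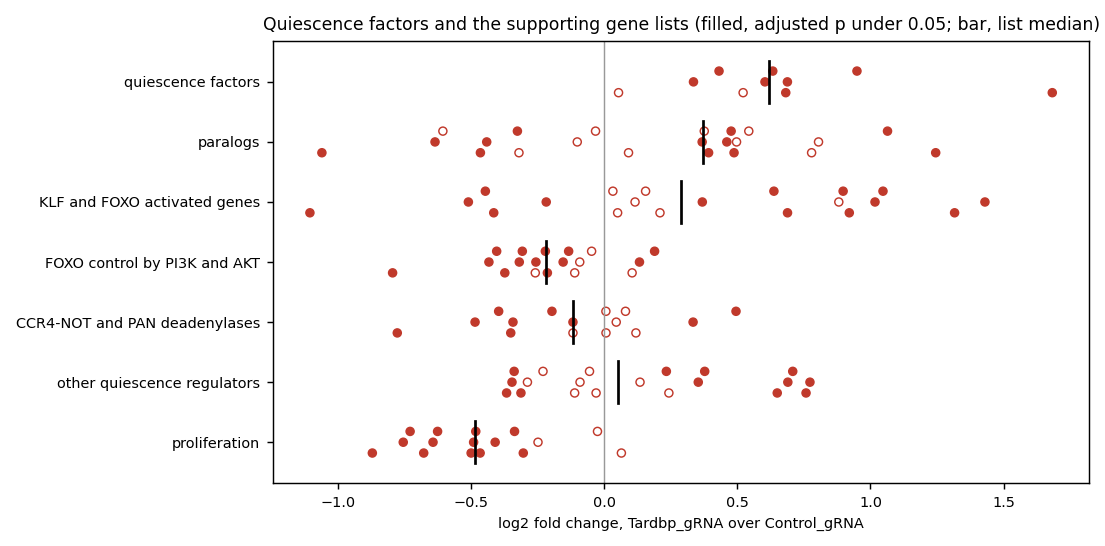
Log2 fold change, Tardbp_gRNA over Control_gRNA (horizontal axis), of the tested genes of each list (points, filled where the edgeR adjusted p is under 0.05, spread vertically only to be seen) with the list median as a black bar. The 10 quiescence factors lie between 0.05 and 1.68, the proliferation genes between -0.87 and 0.06, and the other lists span 0.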

How the data were processed

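The 10 genes and all supporting lists were chosen with earlier results of these data known. Groups and library numbers came from the labels. As the labels and methods state, reads were aligned by the authors from SMART-Seq v4 and Nextera XT libraries with HISAT2 2.1.0 to mm10, and the authors deposited estimated counts per gene and transcript from StringTie 2.1.0, not normalized, which were whole as given. Deposited counts of read pairs were 29714709 to 48164083 per library, so about 2 counts stand for 1 pair, and PCR copies are not independent molecules. The authors also deposited Psi as a fraction per node from Whippet, pooled by group. Which column was which group came from the study's text, and the Psi difference and its probability given beside them were not used. The RNA concentration is a deposited score with no unit. In both count matrices 10 columns matched no sample here and stayed out, as did lines without a gene name (0.0836 to 0.132% of counts).

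In R 4.3.3, edgeR 4.0.16 tested all genes with the quasi-likelihood test, 8 against 8 libraries, two-sided, with TMM scaling and filterByExpr (minimum count 10, total 15, proportion 0.7), and a call needed a Benjamini-Hochberg adjusted p below 0.05 over all genes. Transcripts were treated alike. Shares of transcripts were tested with limma 3.58.1 at a difference over 0.1. CPM carry the TMM scaling, with a prior count of 2 on the log2 scale. TPM used annotated GENCODE M21 transcript lengths (GRCm38). Exact permutation tests enumerated 12870 relabellings, two-sided. The scripts were tested on simulated data.

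Named were all 10 genes and Tardbp, in each list the 2 highest and 2 lowest called genes with mean log2 CPM of at least 3, S1pr1, Ccr7 and Il7r, called family members, transcripts of at least 10% of a gene, nodes past 0.1 and the 2 genes most like each factor; 2 genes that this rule names are not reported here. Mki67, Tob2, 3 minor Foxp1 transcripts and the markers Pax5, Eomes, Ncr1 and Klrb1c were named after their values were seen. Alternatives were DESeq2 1.42.0, other scalings and filters, blocks, covariates, subsets and thresholds.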

Additional observations from a re-analysis of the deposited data

Results flagged for a closer look

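There were 22 groups of 8 libraries (11 genes, 2 groups each). In 6 of them 1 library had a gap to its neighbour, relative to the group's range, above Dixon's 95% critical value. Chance gives about 1.1 such groups on average. All 6 fell in Control_gRNA library 2 or Tardbp_gRNA library 3. The groups reuse the same libraries and most of these genes correlate within them, so the 6 are not independent events. Control_gRNA library 2 stood apart upward for 3 genes: Klf2 at 132 CPM with the others at 49.1 to 83.8 CPM, Klf3 at 71.3 CPM with the others at 37.2 to 51.9 CPM, and Foxo1 at 31.1 CPM with the others at 18.1 to 22.5 CPM. Tardbp_gRNA library 3 stood apart upward for Klf6 at 116 CPM, with the others at 78.1 to 94.8 CPM, and for Klf13 at 68.8 CPM, with the others at 35.9 to 49.3 CPM. The same library stood apart downward for Tardbp at 110 CPM, with the others at 130 to 147 CPM.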

How the results depend on the processing

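The 8 calls among the 10 genes were the same 8 with DESeq2, other scalings, other count filters, number-set and letter terms. Leaving out 1 library each gave 7 to 9 calls among the 10 genes and 7265 to 7734 over all genes, against 7783. A log2 fold change over 1 left 1 of the 10 genes and 1001 of all genes, and over 0.5 left 6 and 3362. An edgeR adjusted p under 0.01 left 6 and 5748. Klf13 and Tob1 dropped out both at 0.5 and at 0.01. Libraries 1 to 3 alone gave 2 and 1696 calls, and the RNA concentration covariate 3 and 2697. Among the lists, that covariate left 7 calls of KLF and FOXO activated genes, 6 of FOXO control, 5 of deadenylases, 4 of other regulators and 3 of paralogs, with 0 higher among FOXO control, deadenylases and paralogs, and libraries 4 to 8 alone left 8 of FOXO control. The cause was not tested. The Klf6 log2 difference ranged from -0.01 to 0.073 with 1 library left out, and changed sign (-0.009 with libraries 4 to 8 alone, -0.01 without Tardbp_gRNA library 3, -0.023 without that library and Control_gRNA library 2, a setting chosen after seeing the data). Without a minimum difference 1 transcript share passed, and Psi thresholds of 0.05 and 0.2 gave 12 and 2 nodes. Library totals and upper-quartile scaling put 60.9% and 61.2% of all calls higher, against 50.2%. With the library number as a replicate block, 8 of the 10 genes and 7645 of all genes were called. Whether the numbers pair the samples was not settled. Same-numbered libraries correlated at -0.0048 to 0.16, with 2 of 8 pairs over 0.1. Of the 16 libraries, 5 correlated best with their own number. On the second principal component, an axis that held 8.6% of the variance, libraries 1 to 3 lay above 4 to 8 in each group. What sets these libraries apart was not tested. Depth limits Foxo3 most, at 83 to 291 counts per library, and pooled Psi has no error. Levels per length moved with the length used for 9 of the 10 genes.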
